A study of Bos taurus with 10 samples.

Results

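The genes described here are the aminoacyl-tRNA synthetases and the genes that process, modify or scaffold tRNA metabolism, chosen by symbol: the synthetases, AIMP scaffolds, RNase P and MRP subunits (POP and RPP), TRMT methyltransferases, pseudouridine synthases (PUS and TRUB), Elongator subunits (ELP), QTRT1, ADAT1, TRIT1, TRNT1 and TSEN subunits. The rule took 84 probe sets, of which 39 belonged to synthetases and 45 to the other genes, and these stood for 64 of the 9155 genes that the array names with a single symbol. Of these, 28 were synthetases and 36 were other genes. The 36 are called tRNA processing genes below, although they include the scaffolds AIMP1 and AIMP2, which do not process tRNA. The rule itself reads symbols and no values, but it was written with earlier results of these data known.

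Bovine oocytes from abattoir ovaries were compared at the immature stage and after in vitro maturation (IVM) on 10 Affymetrix bovine arrays, 5 for each group. Each array held a pool of 100 oocytes stripped of their cumulus cells, and breed and age of the cows were not given in the sources used here. Immature oocytes were frozen at 0 h. IVM oocytes were cultured for 24 h inside their cumulus complexes, in TCM medium with fetal calf serum and epidermal growth factor, and were stripped only afterwards. Both groups came from the same kind of follicle and received no other agent, and a pool mixes oocytes of several cows.

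An aminoacyl-tRNA synthetase joins an amino acid to its tRNA, and a separate set of nuclear-encoded enzymes does so inside mitochondria. In the cytosol of animal cells several synthetases are held in a multisynthetase complex by the scaffold proteins AIMP1, AIMP2 and EEF1E1. Precursor tRNAs are trimmed at the 5′ end by RNase P, and mature tRNAs carry many methylated and otherwise modified bases that affect folding and decoding. A growing oocyte stores ribosomes, tRNAs and maternal mRNAs, and translation of stored mRNA drives meiotic maturation.

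A value below is the deposited log2 value of a probe set, and a difference is IVM minus immature on the log2 scale. A gene is said to have fallen or risen where limma gave an adjusted p under 0.05 and its 10 values spanned at least 0.01. By the summarisation method used, a probe set without an informative signal is listed at an almost constant value, so 21 of the 64 genes hardly varied and carry no information on the comparison. The other 43 varied (67.2%), against 55.9% of all genes on the array. Array medians ran from 7.04 to 7.10. Of the member genes that fell, CARS2 (6.95), TRMT10B (6.63), TRMT1 (6.90), POP5 (6.95), VARS2 (6.95), RPP38 (7.06), QTRT1 (7.09) and PUS7L (7.10) had IVM means no higher than this. So had DUS3L (6.80), TPRKB (6.72) and FARS2 (6.92) among the other tRNA genes named below. Such values may lie near background, so the sizes of these falls are uncertain. The poly-A control transcripts, which are spiked into the RNA before labelling, lay between 6.93 and 7.37 on the immature and between 7.92 and 8.48 on the IVM arrays, so centring on them lowers the median difference of all genes to -1.05. The hybridization controls lay between 9.38 and 9.73 on immature arrays 1 to 3 and between 10.75 and 11.22 on the other 7 arrays. Defining oocyte markers were detected in both groups, with 9 of 14 named on the array and a mean level over these 9 of 12.45 to 12.95 on immature arrays and 10.21 to 11.61 on IVM arrays. Of these 9 markers, 5 fell and 1 rose. Their differences ran from -4.42 for GDF9 to 0.37 for KPNA7, and OOEP (-0.12), MOS (0.14) and BMP15 (0.19) did not pass. Of 18 cumulus and granulosa markers, 14 varied, 5 rose and 1 fell, and the mean level of the 14 was 7.10 to 9.25 on immature and 8.64 to 10.86 on IVM arrays. The median difference of the 14 was -0.051, with 7 positive and 7 negative, and the mean was raised by the cumulus matrix genes TNFAIP6 (10.86), PTX3 (6.38) and VCAN (3.96), while FST (-1.79) and INHA (-0.91) did not pass. Of 7 fibroblast and other somatic markers, 4 rose and none fell, with a mean level over the 5 that varied of 6.27 to 8.11 on immature and 8.32 to 10.67 on IVM arrays, and the 3 blood markers hardly varied. The part of these cells in the results was not tested. Because each array measures a pool on a relative scale, fewer oocyte transcripts among those of other cells and less RNA per oocyte cannot be told apart. Other causes that act on single transcripts were not tested.

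Among the 28 synthetase genes, 10 fell and 3 rose in IVM oocytes, 8 varied without passing the test and 7 hardly varied. The cytosolic arginyl enzyme RARS1, the cytosolic asparaginyl enzyme NARS1 and the mitochondrial cysteinyl enzyme CARS2 had the 3 largest falls, and the glycyl enzyme GARS1 had the largest rise. The 10 that fell were 35.7% of the synthetase genes, against 21.2% of all genes on the array, and the 3 that rose were 10.7% against 16.7%. Among the 36 tRNA processing genes, 16 fell (44.4%), 3 rose (8.33%), 3 varied without passing and 14 hardly varied. The median difference was -0.38 over the 21 varying synthetases and -0.77 over the 22 varying tRNA processing genes, where it was 0.00 over the 5121 varying genes of the array. Over all 28 synthetase genes and all 36 processing genes, the hardly varying ones included, the medians were -0.034 and 0.00. With the arrays centred on the poly-A controls no gene of either set rose, and 19 synthetases and 19 processing genes fell, so the split between falls and rises depends on the scaling. Without immature arrays 1 to 3, whose hybridization controls lay low, 5 synthetases and 9 processing genes fell, and the calls of EPRS1, SARS1, TARS1, TARS2, VARS2, ELP5, POP4, POP5, TRMT1, TRMT2A, TRMT10C, TRMT13 and TRMT61B were lost. The differences of these 13 genes kept their direction and were 0.63 to 1.32 times those of all arrays, with immature arrays 4 and 5 alone left in that group. Shares of all genes were not counted with poly-A centring or without immature arrays 1 to 3. The counts in those settings therefore do not set the members apart from other genes.

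At the stricter level of 0.0001, the false discovery rate that the methods name, 2 synthetases (RARS1 and CARS2) and 6 processing genes (AIMP2, POP7, PUS7L, RPP30, RPP38 and TRMT10B) fell, and GARS1 alone rose. Of all genes on the array, 8.77% fell and 1.30% rose at this level. With the replicate number as a block none of the 64 genes passed it, in either direction. All 5 IVM arrays lay below all 5 immature arrays for 8 synthetases and 14 processing genes (19.8% of all genes) and above them for 3 and 3 (13.4% of all genes).

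**Figure D1:**
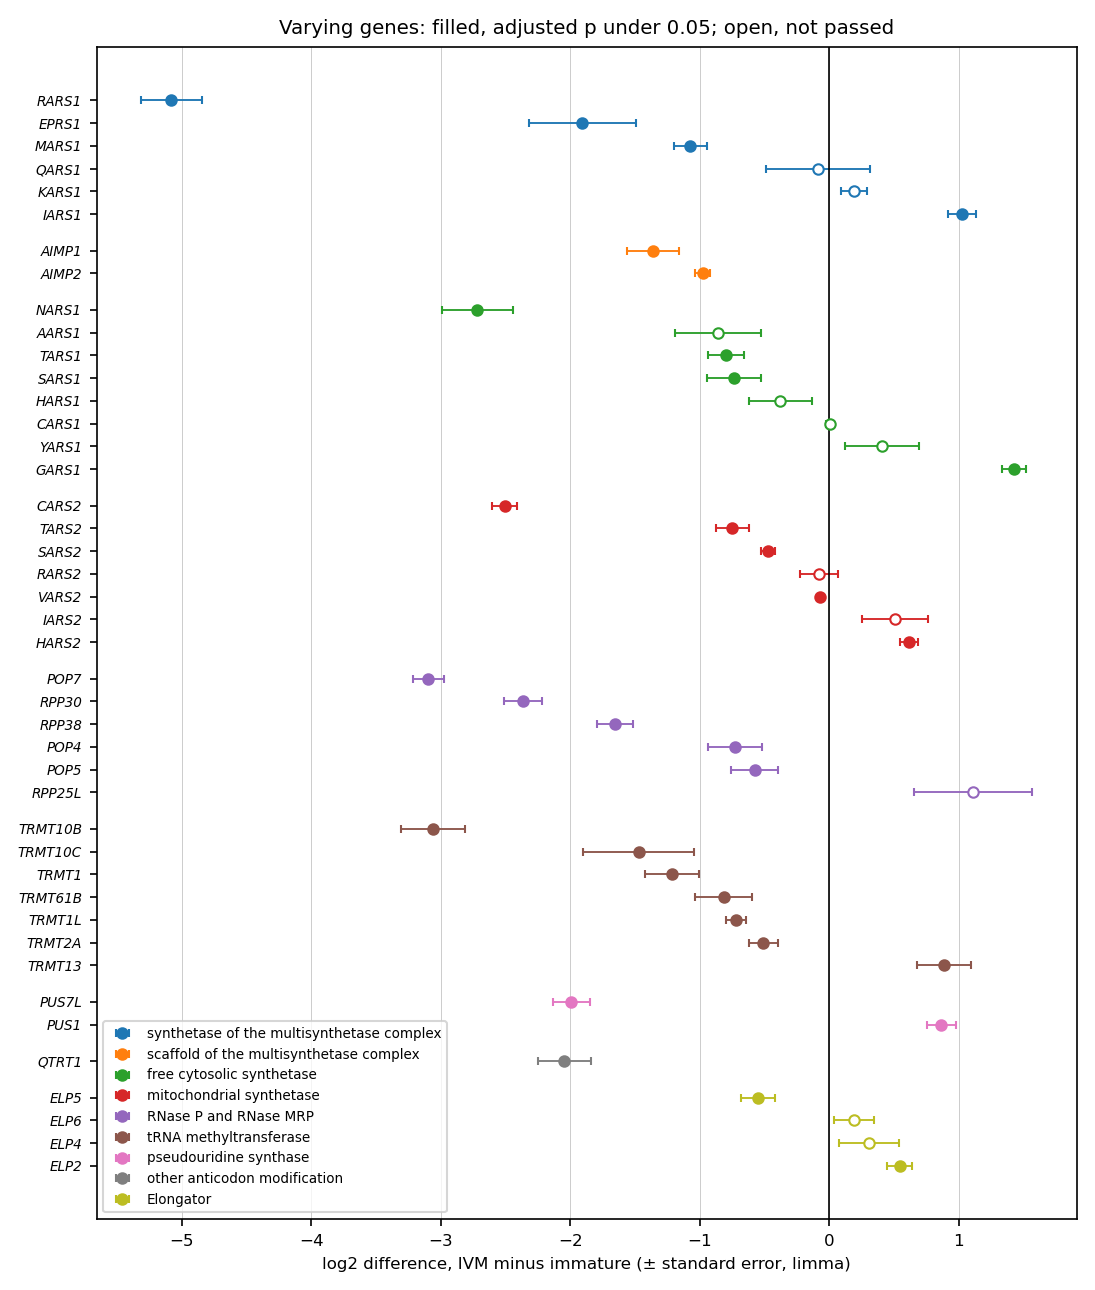
Log2 difference (IVM minus immature, horizontal axis) with its standard error for the 43 synthetase and tRNA processing genes whose values varied, grouped by role. Filled points passed an adjusted p under 0.05 and open points did not: the filled points lie at -5.08 for RARS1 at one end and at 1.43 for GARS1 at the other, with 26 to the left and 6 to the right of 0, and 5 of the 6 on the right (all but GARS1) turn negative when the arrays are centred on the poly-A controls.

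Of the 7 synthetases of the multisynthetase complex named on the array, 3 fell (42.9%, against 21.2% of all genes) and 1 rose (14.3% against 16.7%). A further 2 varied without passing and 1, LARS1 for leucine, hardly varied. RARS1 read 12.72, 12.91, 12.68, 12.86 and 13.25 on immature arrays 1 to 5 and 7.56, 8.07, 7.28, 8.48 and 7.63 on IVM arrays 1 to 5. Every immature array lay far above every IVM array, and the mean fell from 12.88 ± 0.22 to 7.80 ± 0.47 (SD, n = 5 each). The difference was -5.08 (SE 0.23, adjusted p = 1.49e-06), a 33.8-fold decrease. A second RARS1 probe set gave -5.38 (adjusted p = 1.04e-06).

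EPRS1, a fused enzyme that charges both glutamate and proline tRNAs, read 10.81, 10.63, 10.56, 10.60 and 10.70 on the immature arrays and 8.07, 9.03, 8.42, 10.23 and 7.99 on the IVM arrays. The groups did not overlap, but IVM array 4 lay close to the immature values while the other IVM arrays lay at or below 9.03. Its difference was -1.91 (SE 0.41, adjusted p = 0.00842), and without IVM array 4 it was -2.28 (adjusted p = 1.64e-04). MARS1, which charges methionine tRNAs including the initiator, read 8.58, 8.87, 8.70, 8.65 and 8.99 on the immature and 7.42, 7.70, 7.59, 8.05 and 7.67 on the IVM arrays. The 2 ranges were separate and the difference was -1.07 (SE 0.13, adjusted p = 3.49e-04), a 2.10-fold decrease.

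IARS1, the isoleucyl enzyme of the same complex, went the other way. Its values were 9.95, 10.22, 9.86, 9.87 and 10.11 on the immature and 11.32, 11.00, 10.92, 10.82 and 11.09 on the IVM arrays. Every IVM array was higher, with a difference of 1.03 (SE 0.11, adjusted p = 1.77e-04), but centring on the poly-A controls brought it to -0.025. The lysyl enzyme KARS1, which serves both cytosol and mitochondria, had a difference of 0.19 (SE 0.10, adjusted p = 0.211), and the glutaminyl enzyme QARS1 one of -0.086 (SE 0.40, adjusted p = 0.977). For QARS1 the IVM arrays spread from 8.08 to 10.20 and enclosed all immature values.

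Both AIMP scaffolds fell. AIMP1 read 9.07, 9.16, 9.66, 9.33 and 9.12 on the immature and 7.36, 8.14, 7.87, 8.39 and 7.76 on the IVM arrays, a difference of -1.36 (SE 0.20, adjusted p = 0.00121). AIMP2 read 10.03, 10.11, 10.02, 10.15 and 10.01 against 9.04, 9.22, 9.00, 9.20 and 8.98, a difference of -0.98 (SE 0.059, adjusted p = 6.27e-06). Neither gene had an IVM array within its immature range, and the AIMP2 values lay close together in each group, with SDs of 0.063 and 0.12. EEF1E1, the other scaffold protein, is outside the rule for members and rose by 1.37 (SE 0.16, adjusted p = 2.68e-04), or by 0.31 (adjusted p = 0.133) with poly-A centring. Of the 10 genes of the complex measured, counting the 3 scaffolds, 9 varied, 5 fell and 2 rose, where 21.2% of all genes fell and 16.7% rose.

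Of the 9 free cytosolic synthetases, 3 fell (33.3%, against 21.2% of all genes) and 1 rose (11.1% against 16.7%). A further 4 varied without passing and WARS1 hardly varied. NARS1 read 12.59, 12.82, 12.59, 12.60 and 12.63 on the immature and 9.54, 10.08, 9.79, 10.91 and 9.35 on the IVM arrays. The lowest immature array exceeded the highest IVM array, and the difference was -2.72 (SE 0.28, adjusted p = 1.38e-04), a 6.57-fold decrease, while its other 2 probe sets hardly varied. The threonyl enzyme TARS1 fell by 0.80 (SE 0.14, adjusted p = 0.00315), with immature values of 9.99 to 10.62 and IVM values of 9.21 to 9.72. The seryl enzyme SARS1 had a difference of -0.74 (SE 0.21, adjusted p = 0.0268), but its groups overlapped, because IVM array 4 at 8.54 lay above immature arrays 2, 3 and 4. The SARS1 call was lost with the replicate block (adjusted p = 0.125) and in 7 of the 10 fits that left out 1 array (not without IVM array 4 or immature array 2 or 4), where the adjusted p ran from 4.74e-04 to 0.0657.

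GARS1, whose product charges glycine tRNAs in both cytosol and mitochondria, read 10.85, 11.25, 11.02, 10.74 and 11.07 on the immature and 12.45, 12.34, 12.43, 12.33 and 12.53 on the IVM arrays. All IVM arrays lay above all immature arrays and were closer together, with an SD of 0.083 against 0.20. The difference of 1.43 (SE 0.094, adjusted p = 1.09e-05) was a 2.69-fold increase, and with poly-A centring it was 0.38 (adjusted p = 0.0635). Of the free synthetases that did not pass, the alanyl enzyme AARS1 had a difference of -0.86 (SE 0.33, adjusted p = 0.0944), with immature values of 8.64 to 8.78 and IVM values of 6.97 to 8.87. The tyrosyl enzyme YARS1 gave 0.41 (SE 0.29), the histidyl enzyme HARS1 -0.38 (SE 0.24) and the cysteinyl enzyme CARS1 0.0074 (SE 0.029). The tryptophanyl enzyme WARS1 is represented by a probe set that hardly varied, and another of its 4 probe sets gave -0.24 (adjusted p = 0.334).

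Of the 12 mitochondrial synthetases, 4 fell (33.3%, against 21.2% of all genes) and 1 rose (8.33% against 16.7%). A further 2 varied without passing and 5 hardly varied (AARS2, LARS2, MARS2, NARS2 and WARS2). CARS2 read 9.51, 9.60, 9.54, 9.24 and 9.39 on the immature and 6.72, 6.90, 6.96, 7.20 and 6.97 on the IVM arrays. The groups were far apart, and the difference was -2.51 (SE 0.10, adjusted p = 6.59e-07), a 5.69-fold decrease. The IVM mean of 6.95 lay below all array medians, so the size of the fall is uncertain, and the other CARS2 probe set hardly varied. TARS2 fell by 0.75 (SE 0.13, adjusted p = 0.00235), with values of 7.82 to 8.11 on the immature and 6.91 to 7.58 on the IVM arrays. SARS2 fell by 0.47 (SE 0.055, adjusted p = 3.08e-04), from 7.82 to 7.96 on the immature to 7.27 to 7.54 on the IVM arrays, and neither gene overlapped between the groups. The valyl enzyme VARS2 passed the test with a difference of only -0.068 (adjusted p = 0.0192) and overlapping groups.

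HARS2 was the mitochondrial enzyme that rose. It read 7.89, 7.88, 7.98, 8.13 and 8.03 on the immature and 8.39, 8.64, 8.74, 8.62 and 8.59 on the IVM arrays. No IVM array reached down to the immature range, and the difference was 0.62 (SE 0.073, adjusted p = 3.26e-04). With poly-A centring it turned to -0.44 (adjusted p = 0.00540), which passed as a fall. IARS2 had a difference of 0.51 (SE 0.25, adjusted p = 0.188) and RARS2 one of -0.081 (SE 0.15, adjusted p = 0.770). By catalytic fold, 4 of the 15 class I synthetases fell (26.7%, against 21.2% of all genes) and 1 rose (6.67% against 16.7%). Among the 12 class II synthetases, 5 fell (41.7%) and 2 rose (16.7%, the share of all genes). With poly-A centring none of these 3 rises passed as a rise, and HARS2 passed as a fall. EPRS1, which holds a domain of each class, is counted apart.

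**Figure D2:**
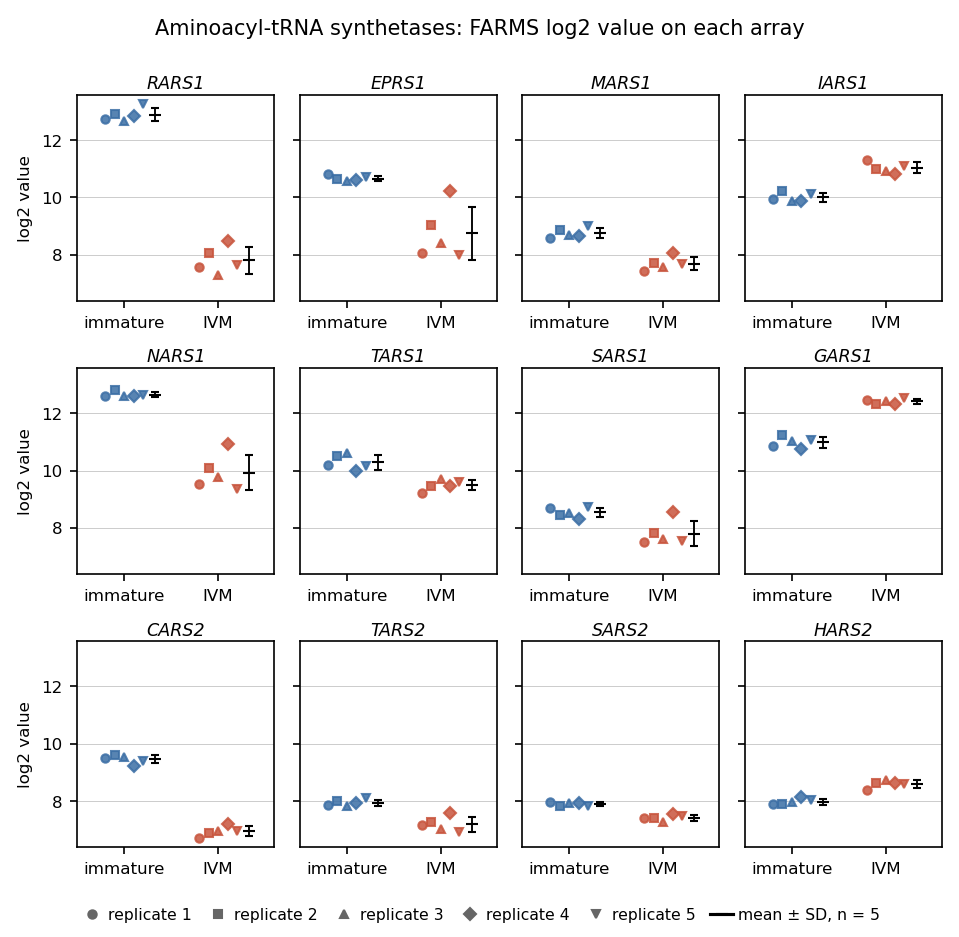
Deposited log2 value (vertical axis) of 12 aminoacyl-tRNA synthetase genes on each immature and IVM array, 1 symbol per replicate, with the mean and SD of 5 arrays beside the points. RARS1, NARS1 and CARS2 show the widest gaps, with IVM means of 7.80, 9.93 and 6.95, IVM array 4 is the highest IVM array for EPRS1, NARS1 and SARS1, and IARS1, GARS1 and HARS2 are higher in IVM oocytes, of which IARS1 and HARS2 turn negative with poly-A centring.

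For 6 amino acids there was a cytosolic and a mitochondrial enzyme that both varied, which allowed the change of one to be set against the other within each array. This comparison was added after the data were seen, and a rescaling of whole arrays cannot change it. Levels of different probe sets cannot be compared, so only the shift of the within-array difference between groups is of use. For arginine, RARS1 minus RARS2 ran from 0.86 to 1.68 on the immature and from -4.55 to -2.64 on the IVM arrays. The shift was -5.00 (SE 0.37, exact two-sided permutation p = 0.00794, 0.0159 after adjustment over the 6 pairs of enzymes), the cytosolic enzyme having fallen while RARS2 had a difference of -0.081. For cysteine the shift had the other sign, with CARS1 minus CARS2 from -2.00 to -1.69 on the immature and from 0.37 to 0.85 on the IVM arrays. That shift was 2.51 (SE 0.10, exact permutation p = 0.00794, adjusted 0.0159). CARS1 spanned only 0.17 over all arrays, and its other probe set hardly varied. The shift is therefore almost wholly the fall of CARS2 (-2.51, or -1.25 as a gene mean) and does not show that the cytosolic enzyme was spared.

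The histidyl pair also shifted, by -0.99 (SE 0.23, exact permutation p = 0.00794, adjusted 0.0159), with HARS1 minus HARS2 from 0.85 to 1.22 on the immature and from -0.46 to 0.76 on the IVM arrays. In these 3 pairs the groups did not overlap, and 0.00794 is the smallest p that 252 regroupings of 5 against 5 arrays can give. These regroupings do not keep arrays of the same number together. Exchanging the stages only within each number, all 5 numbers shifted the same way in each of the 3 pairs, and the exact two-sided p was 0.0625, the smallest that the 32 exchanges can give, so that test could not pass. For isoleucine the shift was 0.52 (SE 0.33, exact permutation p = 0.167, adjusted 0.250), for serine -0.26 (SE 0.19, p = 0.214, adjusted 0.257) and for threonine -0.050 (SE 0.22, p = 0.825). In the threonyl pair both enzymes fell, TARS1 by 0.80 and TARS2 by 0.75.

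**Figure D3:**
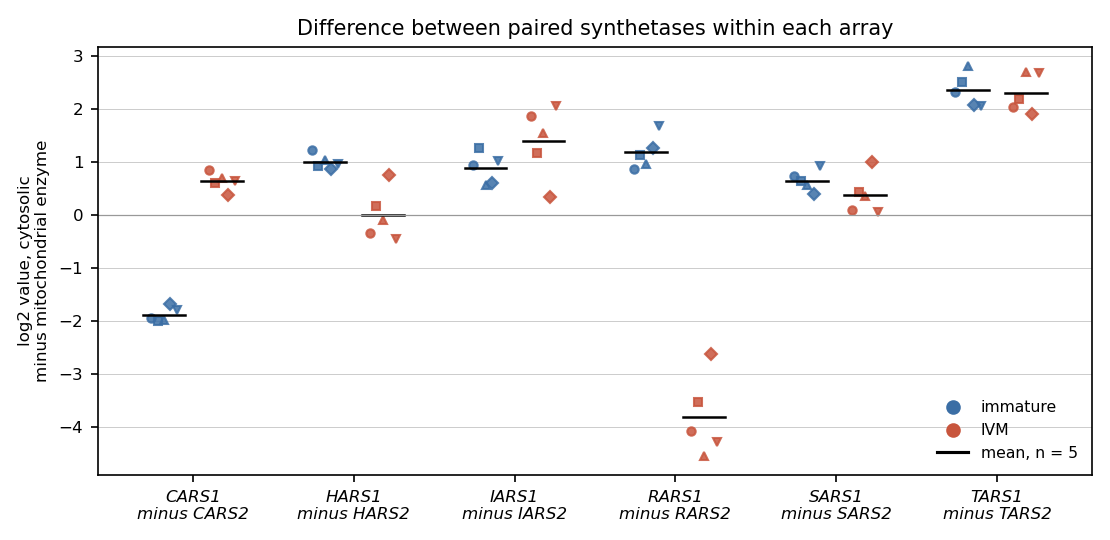
Log2 value of the cytosolic minus that of the mitochondrial synthetase within each array (vertical axis), for the 6 amino acids with both enzymes varying, with blue points for immature arrays, red points for IVM arrays and black lines for the means of 5. The arginyl difference drops from a mean of 1.18 to -3.82, the cysteinyl difference climbs from -1.89 to 0.63, and the threonyl means lie at 2.35 and 2.30.

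Among the 8 subunits of RNase P and the related RNase MRP, 5 fell (62.5%, against 21.2% of all genes) and none rose (16.7% of all genes). RPP25L varied without passing, and POP1 and RPP14 hardly varied. POP7 read 11.66, 11.28, 11.70, 11.50 and 11.40 on the immature and 8.38, 8.27, 8.64, 8.16 and 8.62 on the IVM arrays. Its groups lay well apart, with a difference of -3.10 (SE 0.12, adjusted p = 6.23e-07), an 8.55-fold decrease, and a second POP7 probe set gave -1.69 (adjusted p = 6.05e-06). RPP30 read 10.37, 10.66, 10.05, 10.46 and 10.55 against 7.78, 8.28, 7.85, 8.09 and 8.26, a difference of -2.36 (SE 0.14, adjusted p = 6.95e-06). RPP38 read 8.91, 8.70, 8.43, 8.65 and 8.87 against 6.76, 7.00, 7.43, 7.13 and 6.98, a difference of -1.65 (SE 0.14, adjusted p = 4.59e-05).

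For RPP30 and RPP38 too, every IVM array was below every immature array. POP4 fell by 0.73 (SE 0.21, adjusted p = 0.0294) without overlap, with IVM array 4 lowest at 9.01, and its call was lost without IVM array 2 or immature array 2, 3 or 5 (adjusted p up to 0.0711). POP5 fell by 0.58 (SE 0.18, adjusted p = 0.0428) with overlapping groups, and its call was lost with the replicate block (adjusted p = 0.0691) and in 8 of the 10 fits that left out 1 array, all but those without IVM array 4 or immature array 2 (adjusted p from 0.00922 to 0.0960). RPP25L, a paralog of the RPP25 subunit, had a difference of 1.11 (SE 0.46, adjusted p = 0.110), because IVM arrays 2 and 4 lay at 8.80 and 9.17 and the other IVM arrays at 7.26 to 7.52.

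Of the 11 TRMT methyltransferase genes, 6 fell (54.5%, against 21.2% of all genes) and 1 rose (9.09% against 16.7%). The other 4 (TRMT6, TRMT61A, TRMT11 and TRMT12) hardly varied. TRMT10B, a tRNA methyltransferase, read 9.44, 9.82, 9.86, 9.61 and 9.69 on the immature and 6.24, 6.85, 6.38, 7.45 and 6.21 on the IVM arrays. All IVM arrays were lower, with a difference of -3.06 (SE 0.25, adjusted p = 3.52e-05), an 8.33-fold decrease. TRMT1, which dimethylates a guanine between the D arm and the anticodon arm, fell by 1.22 (SE 0.21, adjusted p = 0.00255), with values of 7.90 to 8.36 on the immature and 6.52 to 7.62 on the IVM arrays.

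TRMT10C is both a methyltransferase and a subunit of mitochondrial RNase P. It read 8.56, 8.44, 8.69, 8.66 and 8.63 on the immature and 6.63, 7.71, 6.69, 8.50 and 6.09 on the IVM arrays. IVM array 4 lay inside the immature range and the SD was 0.098 on the immature and 0.97 on the IVM arrays, so the difference of -1.47 (SE 0.43) had an adjusted p of 0.0326, and of 0.0853 with the replicate block. The call was lost in 8 of the 10 fits that left out 1 array, all but those without IVM array 2 or 4 (adjusted p from 0.00279 to 0.0757).

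The TRMT1 paralog TRMT1L fell by 0.72 (SE 0.075, adjusted p = 1.60e-04), the mitochondrial adenine methyltransferase TRMT61B by 0.81 (SE 0.22, adjusted p = 0.0229, or 0.0545 without immature array 2) and the uridine methyltransferase TRMT2A by 0.51 (SE 0.11, adjusted p = 0.0103). TRMT13, a ribose methyltransferase of the acceptor stem, read 7.52, 7.91, 7.60, 7.53 and 7.66 on the immature and 9.07, 8.06, 8.19, 8.88 and 8.44 on the IVM arrays. Its groups did not overlap and it rose by 0.89 (SE 0.21, adjusted p = 0.0118), but the difference was -0.17 with poly-A centring and the call was lost with the replicate block (adjusted p = 0.0762).

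The 2 pseudouridine synthases that varied went in opposite directions, and PUS7 and TRUB2 hardly varied. PUS7L, a paralog of PUS7, read 9.17, 9.43, 9.10, 8.71 and 9.03 on the immature and 7.26, 7.28, 6.92, 6.87 and 7.16 on the IVM arrays, a difference of -1.99 (SE 0.14, adjusted p = 1.82e-05). PUS1, which acts on cytosolic and mitochondrial tRNAs, read 8.19, 8.33, 8.09, 8.21 and 8.33 against 9.31, 9.10, 9.06, 8.73 and 9.30, a difference of 0.87 (SE 0.11, adjusted p = 6.34e-04) that became -0.19 with poly-A centring. In both genes the groups were separate.

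QTRT1, the catalytic subunit of the enzyme that inserts queuine at the wobble base, read 9.18, 9.23, 8.59, 9.36 and 9.33 on the immature and 6.76, 7.15, 7.01, 7.63 and 6.92 on the IVM arrays. All IVM arrays were lower, with a difference of -2.05 (SE 0.20, adjusted p = 1.24e-04), a 4.13-fold decrease. The other anticodon loop enzymes, the deaminase ADAT1 and the isopentenyltransferase TRIT1, hardly varied. Nor did TRNT1, which adds the CCA end, or the splicing endonuclease subunits TSEN15 and TSEN54.

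Of the 5 subunits of Elongator, which modifies wobble uridines, 1 fell (20.0%, against 21.2% of all genes) and 1 rose (20.0% against 16.7%). A further 2 varied without passing and the catalytic subunit ELP3 hardly varied. ELP5 read 10.23, 9.95, 10.18, 10.01 and 10.03 on the immature and 9.48, 9.48, 9.81, 9.12 and 9.75 on the IVM arrays, a difference of -0.55 (SE 0.13, adjusted p = 0.0135). ELP2 read 10.56, 10.59, 10.55, 10.33 and 10.43 against 11.16, 11.09, 11.03, 10.72 and 11.16, a difference of 0.54 (SE 0.095, adjusted p = 0.00280), which turned to -0.51 (adjusted p = 0.0138) with poly-A centring. The groups did not overlap for either gene. ELP4 and ELP6, which form a ring with ELP5, had differences of 0.31 (SE 0.23) and 0.19 (SE 0.16).

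**Figure D4:**
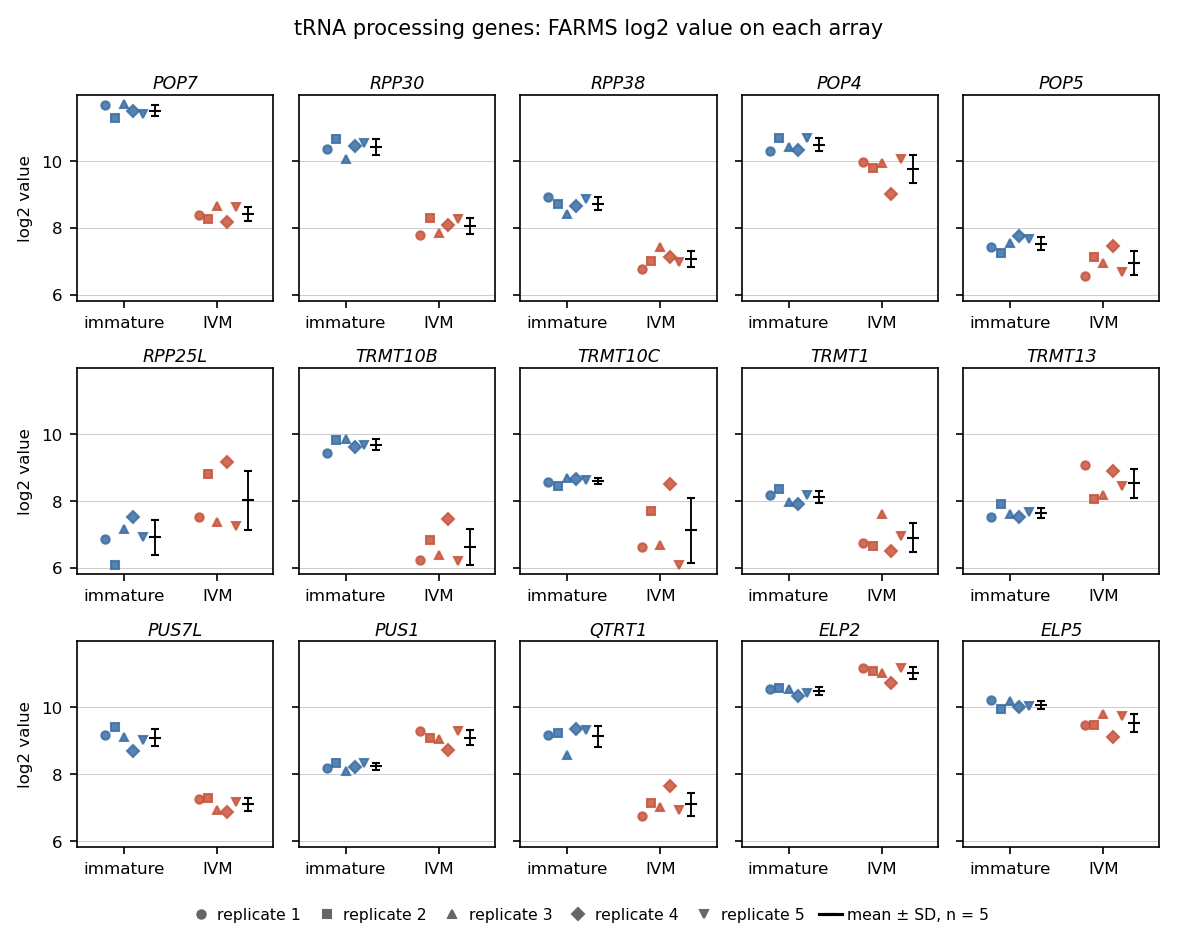
Deposited log2 value (vertical axis) of 15 tRNA processing genes on each immature and IVM array, 1 symbol per replicate, with the mean and SD of 5 arrays. POP7, RPP30, TRMT10B, PUS7L and QTRT1 are separated by 1.99 or more on average, the IVM values of TRMT10C reach up to 8.50 inside the immature range, and TRMT13, PUS1 and ELP2 are higher in IVM oocytes with the deposited scaling but not with poly-A centring.

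The spread between pools also differed between the groups. For 37 of the 43 varying genes (86.0%) the SD was larger over the IVM than over the immature arrays, where this held for 78.0% of all varying genes of the array. The median SD over the 43 genes was 0.16 on the immature and 0.31 on the IVM arrays. IVM array 4 was the highest or the lowest IVM array for 33 of the 43 genes (76.7%), a share like the 76.5% of all varying genes. Among the IVM arrays, array 4 also had the lowest mean of the 9 oocyte markers (10.21). It had the highest means of the varying cumulus and granulosa markers (10.86) and of the fibroblast and other somatic markers (10.67). The part of this in its values was not tested. Without IVM array 4, all 32 genes that passed still passed, and the synthetases that fell numbered 12 instead of 10. For 9 of the 32 (CARS2, ELP2, MARS1, NARS1, POP4, QTRT1, RPP38, TARS2 and TRMT1) the array holds further probe sets that hardly varied. Averaging all probe sets of a gene kept their calls but gave smaller differences, such as -0.91 for NARS1, -1.25 for CARS2, -1.02 for QTRT1 and -0.83 for RPP38.

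Other genes of tRNA metabolism were taken from a list of 78, of which 55 were named on the array and 41 varied (74.5%, against 55.9% of all genes). Of the 55, 17 fell (30.9%, against 21.2% of all genes) and 11 rose (20.0% against 16.7%). With poly-A centring 8 of the 11 rises turned negative. The largest falls were those of DUS3L, a dihydrouridine synthase, with a difference of -3.84 (SE 0.10, adjusted p = 9.85e-08), of NAT10, an acetyltransferase of rRNA and tRNA (-3.75, SE 0.29, adjusted p = 2.96e-05), and of TRPT1, a tRNA phosphotransferase (-3.07, SE 0.13, adjusted p = 9.77e-07). Second probe sets gave -1.71 (adjusted p = 3.29e-05) for DUS3L and -0.62 (adjusted p = 0.0603) for NAT10, and that of TRPT1 hardly varied. The largest rises were those of EEF1E1, given above, of LARP7, an RNA-binding protein (1.25, SE 0.28, adjusted p = 0.0102), and of the tRNA exporter XPOT (1.08, SE 0.13, adjusted p = 4.05e-04), and with poly-A centring none of these 3 passed, at 0.31 (adjusted p = 0.133), 0.19 (0.500) and 0.030 (0.888). For LARP7 another probe set gave -3.41 (adjusted p = 2.06e-06), so its direction is not settled. A second XPOT probe set gave 0.66 (adjusted p = 0.0335). FARS2, a mitochondrial phenylalanyl enzyme whose symbol the rule for members does not match, fell by 0.22 (SE 0.042, adjusted p = 0.00441).

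A few further genes of the list, chosen after their values were seen, complete steps described above. ELAC2, which trims the 3′ end of precursor tRNAs, fell by 1.99 (SE 0.094, adjusted p = 1.74e-06), and its paralog ELAC1 had a difference of 0.64 (adjusted p = 0.0644). PRORP, the nuclease of mitochondrial RNase P and so a partner of TRMT10C, fell by 1.55 (SE 0.15, adjusted p = 1.09e-04), and HSD17B10, the remaining subunit, had a difference of -0.77 (adjusted p = 0.156) with overlapping groups. GON7 and TPRKB, subunits of the complex that adds threonylcarbamoyl to adenine, had differences of -2.83 (SE 0.15, adjusted p = 2.77e-06) and -2.24 (SE 0.26, adjusted p = 3.34e-04). The catalytic subunit OSGEP gave -0.31 (adjusted p = 0.234) and the kinase subunit TP53RK -0.029 (adjusted p = 0.905), neither past the test. YRDC, which makes the donor for that reaction, rose by 0.88 (SE 0.18, adjusted p = 0.00697), but gave -0.17 with poly-A centring. The precursor-binding protein SSB rose by 0.89 (SE 0.062, adjusted p = 1.44e-05) and the RNA kinase CLP1 by 0.93 (SE 0.22, adjusted p = 0.0116). Both were negative with poly-A centring, at -0.16 and -0.12. A second CLP1 probe set gave 0.94 (adjusted p = 0.0733), and the other PRORP and YRDC probe sets hardly varied.

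**Figure D5:**
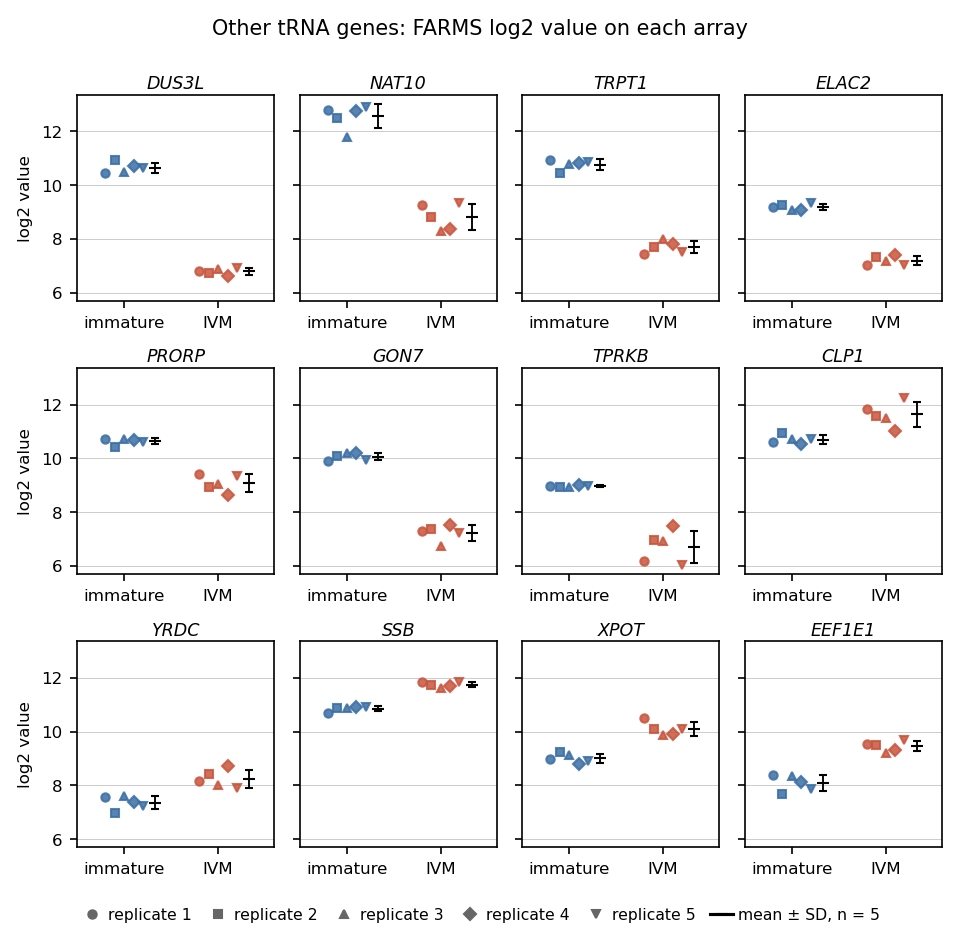
Deposited log2 value (vertical axis) of 12 other tRNA genes on each immature and IVM array, 1 symbol per replicate, with the mean and SD of 5 arrays. DUS3L drops from a mean of 10.64 to 6.80 and GON7 from 10.06 to 7.23, while CLP1, YRDC, SSB, XPOT and EEF1E1 are higher in IVM oocytes, of which CLP1, YRDC and SSB turn negative with poly-A centring.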

How the data were processed

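The authors hybridised RNA of 5 immature and 5 IVM pools, amplified in repeated linear rounds, quantified the arrays with GCOS and summarised probes with FARMS after quantile normalization. The authors deposited 1 log2 value for each probe set on each array, and 0 columns were left unused. Without 112 control probe sets, 24016 were tested with lmFit and eBayes of limma 3.58.1 (R 4.3.3), IVM minus immature, with Benjamini-Hochberg adjustment over all of them. The prior had 0.103 degrees of freedom. After it was seen that 1119 probe sets with values spanning under 0.01 passed an adjusted p of 0.05, calls were made to require that span. This removed POP1 and ADAT1, whose differences were at most 3.3e-08.

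Symbols came from the platform annotation, updated through RefSeq for 13265 probe sets and left as they were for 27. No gene was named from the 86 that match several genes or the 10638 that the annotation leaves blank. The probe set with the highest mean over 10 arrays stood for a gene. Genes with full values are those past 0.0001 and, per role, up to 3 with the largest rise and fall past 0.05, and of the other tRNA genes the 3 largest rises and falls. Members and lists were chosen with earlier results of these data known.

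The study equates replicates with collection days. The limma test behind the calls had no term for the replicate number. Only the replicate block and the exchanges within numbers took same-numbered arrays as 1 day. Across probe sets, the deviations of the immature and the IVM array of a number from their group means correlated with r = 0.149, -0.343, 0.0818, 0.676 and 0.352 (numbers 1 to 5), which does not show a shared day for replicates 1 to 3. The alternatives were the replicate block, the varying probe sets only, other centring, another prior, gene means and left-out arrays. Enzyme pairs were compared by exact permutation, over all arrays and within numbers, both chosen after seeing the data. The number of arrays limits the precision. Python 3.11.15, pandas 2.3.3, numpy 2.4.6 and matplotlib 3.10.9 were used.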

Additional observations from a re-analysis of the deposited data

Results flagged for a closer look

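In 52 groups of 5 arrays, 1 for each named member gene and stage, 2 held an array that stood apart from the other 4, where chance marks about 1 group in 20. NARS1 read 12.82 on immature array 2 and 12.59 to 12.63 on the other immature arrays. QTRT1 read 8.59 on immature array 3 and 9.18 to 9.36 on the other immature arrays. Both values lay far above every IVM value of the same gene, which reached 10.91 for NARS1 and 7.63 for QTRT1.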

How the results depend on the processing

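Of the 32 genes that passed an adjusted p under 0.05, all passed in the same direction with a trended robust prior and with gene means, 31 with median centring and with the varying probe sets only (VARS2 did not), 28 with the replicate block (not POP5, SARS1, TRMT10C and TRMT13), 26 with poly-A centring, 28 to 32 when 1 array was left out (POP4, POP5, SARS1, TRMT10C or TRMT61B were lost) and 19 without immature arrays 1 to 3, where the 13 lost differences were 0.63 to 1.32 times those of all arrays. At 0.05 the synthetases that fell numbered 10, or 19 with poly-A centring and 5 without immature arrays 1 to 3, and those that rose 3, or 0 with poly-A centring. The processing genes that fell numbered 16, or 9 without these 3 arrays, and those that rose 3, or 0 with poly-A centring. At 0.0001 the 2 synthetases that fell became 4 with the varying probe sets only or median centring, 15 with poly-A centring, and 0 with the replicate block or without immature arrays 1 to 3. The 1 that rose became 2, 2, 0, 0 and 0 in the same order. The 6 processing genes that fell became 16 with poly-A centring, 0 with the replicate block and 0 without the 3 arrays. Leaving out 1 array at a time gave 3 to 6 such falls (3 without IVM array 5 or immature array 1, 3 or 5) and 0 to 1 rise (1 without IVM array 4). The block changed no count at 0.05 by over 1.5 times. With poly-A centring, which lowers all genes by 1.05, ELP2 (-0.51), HARS2 (-0.44), IARS1 (-0.025), PUS1 (-0.19) and TRMT13 (-0.17) changed direction and GARS1 gave 0.38. The cause of the other changes was not tested. Shares of all genes that passed were not counted for these alternatives. The informative calls of the summarisation method were not analysed here, and hardly varying probe sets may hide real differences.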
